A study of Mus musculus with 12 samples.

Results

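Canonical WNT signaling ends in the nucleus, where β-catenin binds a DNA-binding factor of the TCF/LEF family and recruits coactivators to WNT target genes. The RNA levels of 9 genes of this complex were measured in embryonic mouse brain endothelial cells that carried or lacked GPR124. The 9 genes were chosen by name as parts of this complex, with earlier results of these data known. They were *Ctnnb1*, which encodes β-catenin, the TCF/LEF factors *Lef1*, *Tcf7*, *Tcf7l1* and *Tcf7l2*, the coactivator adaptors *Bcl9*, *Bcl9l* and *Pygo2*, and the inhibitor *Ctnnbip1*. They are 9 of the 49315 genes in the count files, and all 9 passed the filter on low counts that left 16637 genes for testing.

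The RNA came from CD31+ endothelial cells of E15.5 mouse forebrain, sorted as negative for CD140b, CD45 and the dead-cell dye 7-AAD. There were 4 wild-type, 4 Gpr124 deltaC/deltaC and 4 Gpr124-/- libraries. In Gpr124 deltaC/deltaC embryos both copies of *Gpr124* end in a V5 tag and a stop codon just after the last transmembrane segment, so the receptor lacks its intracellular tail. The paper reports that brain endothelial cells also hold less of this receptor protein than of wild-type GPR124, though its RNA is similar. Loss of the tail and loss of protein therefore cannot be told apart in these libraries. In Gpr124-/- embryos both copies are a *lacZ* knockout allele. Both alleles are inherited through the germline, so every tissue of a mutant embryo carried them, not the endothelium alone. The study describes the libraries of a genotype as biological replicates from separate mice, and p-values here measure the spread between them. Each library had 13877572 to 22551163 reads counted on genes.

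GPR124 sits at the surface of brain endothelial cells as part of the receptor complex for WNT7A and WNT7B, ligands made by the neural tissue. Without a WNT signal, cytoplasmic β-catenin is tagged for degradation by a complex built on APC and AXIN. With the signal, β-catenin accumulates and enters the nucleus, and in the brain vasculature this pathway is required for vessel ingrowth and for formation of the blood-brain barrier. LEF1 and TCF7 act mostly as activators once bound by β-catenin, and both genes are themselves WNT targets in many tissues. TCF7L1 acts mostly as a repressor, and TCF7L2 can act either way. BCL9 and BCL9L bridge β-catenin to Pygopus proteins such as PYGO2. CTNNBIP1, also called ICAT, binds β-catenin and blocks its contact with TCF factors.

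*Adgra2*, the current symbol of *Gpr124*, checked the Gpr124-/- label. It cannot tell the wild-type and Gpr124 deltaC/deltaC labels apart, since their levels overlapped. Its level was 38.55 ± 10.4 TPM, the read count of a gene scaled for its length and the library (mean ± SD, n = 4), in wild type, 43.4 ± 13.7 in Gpr124 deltaC/deltaC and 4.86 ± 0.988 in Gpr124-/- libraries. The log2 fold change in Gpr124-/- was −3.05 (SE 0.30, adjusted p = 1.35e-05). Every log2 fold change here comes from the quasi-likelihood test of edgeR unless stated, with p adjusted by the Benjamini-Hochberg method. A gene is said to have passed where its adjusted p over all genes tested was under 0.05.

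Library labels begin with a letter whose meaning the sources used here do not give, and the libraries stood apart by it. Letter J was carried by wild-type JE1 and JE6 and Gpr124 deltaC/deltaC JE3 and JE4, and letter L by wild-type LE6 and Gpr124 deltaC/deltaC LE2 and LE5. Wild-type KE8 and Gpr124-/- KE4 shared letter K, and letter M was carried by Gpr124-/- ME1, ME4 and ME5. A Gpr124-/- library therefore shared a letter with wild type in 1 pair only, and with Gpr124 deltaC/deltaC in none. For most of the Gpr124-/- libraries, letter and genotype cannot be told apart. The fits were therefore repeated with the letter as a term in the model and, as a choice made after seeing the data, without the 4 letter J libraries, and their values are given beside the results they touch.

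In Gpr124-/- endothelial cells *Lef1* and *Tcf7* were lower than in wild type, while *Ctnnb1*, the other TCF/LEF factors, the adaptors and *Ctnnbip1* did not pass. These were the 2 of 9 genes that passed, against 9.32% of all genes tested that passed lower and 10.5% that passed higher. *Tcf7* was also past an absolute log2 fold change of 1, as 4.21% of all genes tested were in the lower direction. The TPM of the 4 Gpr124-/- and 4 wild-type libraries did not overlap for these 2 of 9 genes, against 20.3% of all genes tested. The median log2 fold change of the 9 genes was −0.05, and that of all genes tested was −0.01.

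**Figure D1:**
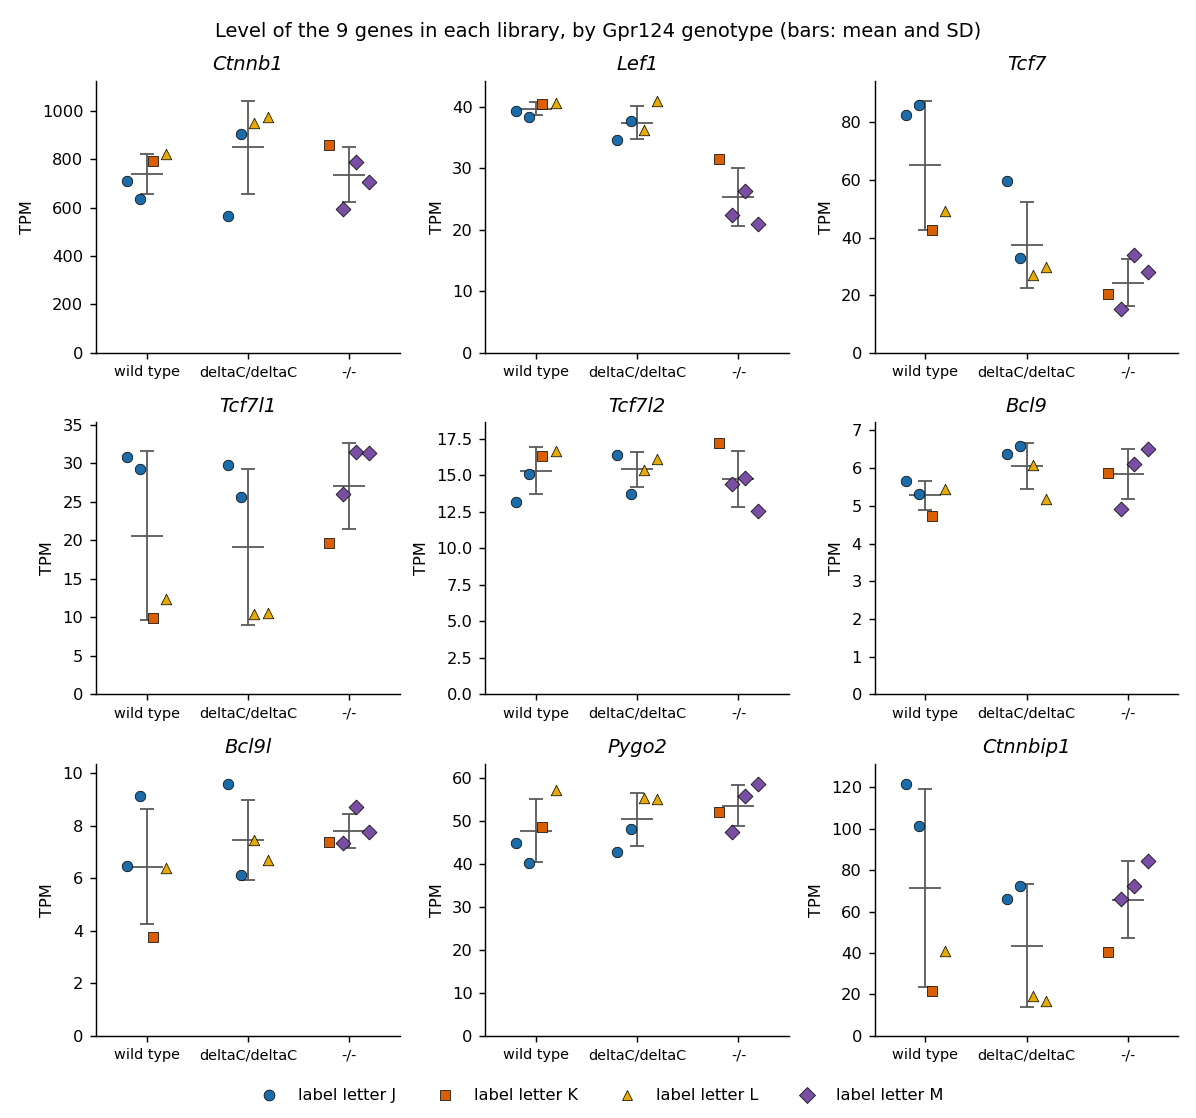
TPM (y axis, starting at 0) of the 9 genes in each of the 12 libraries, by *Gpr124* genotype (x axis), with the mean and SD of the 4 libraries as bars and the label letter as color and shape. *Lef1* is lower in all 4 Gpr124-/- libraries, whereas *Tcf7l1* and *Ctnnbip1* split the wild-type and Gpr124 deltaC/deltaC libraries by letter.

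*Lef1* (ENSMUSG00000027985; GRCm38 chr3:131110471-131224356, plus strand) was the most even of the 9 genes in wild type. Its TPM was 39.35 in JE1, 38.4 in JE6, 40.4 in KE8 and 40.6 in LE6. The Gpr124 deltaC/deltaC values were 34.6 in JE3, 37.75 in JE4, 36.3 in LE2 and 40.9 in LE5. In Gpr124-/- libraries it was 31.55 in KE4, 22.5 in ME1, 26.3 in ME4 and 20.9 in ME5. Every Gpr124-/- library lay below every library of both other genotypes, and the other genotypes overlapped each other. The Gpr124-/- mean was 63.8% of the wild-type mean, a log2 fold change of −0.70 (SE 0.10, 95% interval −0.92 to −0.47, adjusted p = 0.000376, edgeR). In bulk RNA, fewer cells that express a gene and less of its RNA per cell cannot be told apart.

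*Lef1* did not pass in Gpr124 deltaC/deltaC against wild type (log2 fold change −0.16, 95% interval −0.39 to 0.06, adjusted p = 0.558, edgeR). Between the mutants it was lower in Gpr124-/- by 0.53 on the log2 scale, with an interval of −0.76 to −0.31 (adjusted p = 0.00715, edgeR). It was the 1 gene of 9 to pass between the mutants, where 3.89% of all genes tested passed lower and 4.93% higher in Gpr124-/-. It was also the 1 gene of 9 whose TPM did not overlap between the mutants, against 11.5% of all genes tested.

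Both *Lef1* falls lost their call with the label letter as a term. The Gpr124-/- value against wild type, then set by KE4 and KE8, was −0.40 (adjusted p = 0.263), and that against Gpr124 deltaC/deltaC was −0.24 (adjusted p = 0.89, edgeR). Without the letter J libraries *Lef1* passed in both comparisons. Over all 21 alternatives its adjusted p against wild type in Gpr124-/- ran from 3.7e-08 to 0.263.

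*Tcf7* (ENSMUSG00000000782; GRCm38 chr11:52252371-52283014, minus strand) had the largest fall in Gpr124-/- among the 9 genes. Its wild-type TPM was 82.3 in JE1, 85.9 in JE6, 42.5 in KE8 and 49.3 in LE6. The Gpr124 deltaC/deltaC libraries had 59.45 in JE3, 33.0 in JE4, 27.1 in LE2 and 29.8 in LE5. The Gpr124-/- libraries had 20.5 in KE4, 15.1 in ME1, 33.8 in ME4 and 27.9 in ME5. The letter J libraries were the highest in wild type, and JE3 was the highest in Gpr124 deltaC/deltaC. No Gpr124-/- library reached the lowest wild-type value, while Gpr124 deltaC/deltaC overlapped both other genotypes.

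Mean *Tcf7* TPM was 37.4% of wild type in Gpr124-/- and 57.4% in Gpr124 deltaC/deltaC. Its log2 fold change in Gpr124-/- was −1.48 (SE 0.36, 95% interval −2.27 to −0.69, adjusted p = 0.0112, edgeR). For Gpr124 deltaC/deltaC it was −0.85 (SE 0.36, 95% interval −1.63 to −0.07), which did not pass (edgeR unadjusted p = 0.0344, adjusted p = 0.283). The mutants differed by −0.63, with an interval of −1.41 to 0.15 that includes 0 (adjusted p = 0.324, edgeR).

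*Tcf7* was higher in letter J than in letters K and L within the 8 wild-type and Gpr124 deltaC/deltaC libraries, by 0.98 on the log2 scale with genotype in the model (adjusted p = 0.00444, edgeR). Letter by letter, the difference of mean log2 CPM (counts scaled to the library size) of Gpr124 deltaC/deltaC from wild type was −0.97 in letter J and −0.90 in letter L, and that of Gpr124-/- from wild type was −1.09 in letter K (1 library each). With the letter as a term *Tcf7* passed in Gpr124 deltaC/deltaC (log2 fold change −0.89, adjusted p = 0.0498) and no longer in Gpr124-/- (−1.10, adjusted p = 0.231, edgeR). Without the letter J libraries its fall in Gpr124-/- was smaller, at −0.90, and passed (adjusted p = 0.0342, edgeR), but was no longer past an absolute log2 fold change of 1. It also passed in Gpr124 deltaC/deltaC, at −1.28, when JE3 was left out (adjusted p = 0.0461, edgeR). Over all alternatives the adjusted p of *Tcf7* ran from 0.000388 to 0.231 in Gpr124-/- and from 0.0461 to 0.548 in Gpr124 deltaC/deltaC.

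Start regions of the genes that fell were read from the RefSeq table of GRCm38.p6, each 250 bases before to 50 bases after a start site. They are shown because *Lef1* and *Tcf7* are known WNT targets in other tissues and were the genes that fell. Capitals mark the TCF/LEF letters searched for on both strands, CTTTGAA, in which the last pair could also read AT, TA or TT. SOX factors can bind the same letters. The first *Lef1* window ends before the gene start in GENCODE vM21 and the second lies in the gene body with its start site outside every GENCODE exon. The start site of the *Tcf7* window is the GENCODE gene start, in an exon. An ATG lies before that start site, and no stop codon follows in its frame up to the window's end. Much of this window may therefore be coding sequence, and its lack of a match does not describe the bases before the coding region. The *Tcf7l2* window, with its start site in the gene body outside every GENCODE exon, is the other of the 2 windows with a match.
Lef1, chr3:131110047-131110346, plus strand: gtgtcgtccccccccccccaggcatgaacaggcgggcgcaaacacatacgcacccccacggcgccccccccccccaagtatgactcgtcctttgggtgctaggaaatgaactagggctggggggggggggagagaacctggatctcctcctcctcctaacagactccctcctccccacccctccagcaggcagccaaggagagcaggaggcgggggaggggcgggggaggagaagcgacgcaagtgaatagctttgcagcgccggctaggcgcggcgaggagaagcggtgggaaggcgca
Lef1, chr3:131156044-131156343, plus strand: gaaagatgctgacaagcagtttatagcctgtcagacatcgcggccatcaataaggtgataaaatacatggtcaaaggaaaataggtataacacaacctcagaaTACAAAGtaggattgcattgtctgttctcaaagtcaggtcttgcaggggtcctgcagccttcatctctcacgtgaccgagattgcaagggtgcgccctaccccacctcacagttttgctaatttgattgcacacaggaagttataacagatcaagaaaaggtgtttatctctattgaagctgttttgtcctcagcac
Tcf7, chr11:52282965-52283264, minus strand: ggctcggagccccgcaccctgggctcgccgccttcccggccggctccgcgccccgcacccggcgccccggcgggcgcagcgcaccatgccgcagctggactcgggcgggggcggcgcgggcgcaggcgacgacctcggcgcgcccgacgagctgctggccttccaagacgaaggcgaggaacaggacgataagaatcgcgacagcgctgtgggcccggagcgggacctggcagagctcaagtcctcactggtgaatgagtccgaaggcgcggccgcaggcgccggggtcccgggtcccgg
Tcf7l2, chr19:55895071-55895370, plus strand: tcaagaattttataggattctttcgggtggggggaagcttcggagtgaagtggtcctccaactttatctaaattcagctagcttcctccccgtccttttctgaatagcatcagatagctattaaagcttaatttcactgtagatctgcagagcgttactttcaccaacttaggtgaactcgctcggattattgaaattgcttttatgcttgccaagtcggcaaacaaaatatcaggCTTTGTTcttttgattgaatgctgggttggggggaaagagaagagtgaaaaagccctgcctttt

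The table held 17 windows for 8 of the 9 genes, among them 4 for *Lef1* and 2 for *Tcf7*. A match was found in 2 of the 17, and 16.9% of all 32851 windows of this length held one. The *Lef1* match was CTTTGTA on the opposite strand, and the *Tcf7l2* match was CTTTGTT on the same strand. GC content was 67.3% in the first *Lef1* window, 43.7% in the second, 76.3% in the *Tcf7* window and 42.0% in the *Tcf7l2* window.

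The counting of the reads is not stated to use strand, so reads of overlapping genes may be shared. *Gm43352* lies antisense to *Lef1* and passed in the same direction (log2 fold change in Gpr124-/- −0.84, adjusted p = 0.00019, edgeR). *A630014C17Rik*, antisense to *Tcf7*, and *Gm26551*, which overlaps *Tcf7* on its own strand, also passed lower in Gpr124-/- (−2.04, adjusted p = 0.00731, and −1.49, adjusted p = 0.0192, edgeR). Reads of *Lef1* and *Tcf7* and of these partners cannot be told apart where the genes overlap.

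*Tcf7l1* (ENSMUSG00000055799; GRCm38 chr6:72626378-72789254, minus strand) split the wild-type and Gpr124 deltaC/deltaC libraries by label letter. Its wild-type TPM was 30.8 in JE1, 29.3 in JE6, 9.94 in KE8 and 12.3 in LE6. The Gpr124 deltaC/deltaC libraries gave 29.8 in JE3, 25.7 in JE4, 10.4 in LE2 and 10.5 in LE5. In Gpr124-/- it was 19.7 in KE4, 26.0 in ME1, 31.5 in ME4 and 31.35 in ME5. The letter J libraries of both genotypes lay above all letter K and L libraries of those genotypes, and the Gpr124-/- libraries reached from between these ranges to just above them.

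For *Tcf7l1* the log2 difference of letter J from letters K and L in the 8 wild-type and Gpr124 deltaC/deltaC libraries was 1.59 (SE 0.12, adjusted p = 6.7e-06, edgeR). By genotype it did not pass in any of the 3 comparisons with all 12 libraries, and the interval for Gpr124-/- against wild type ran from −0.66 to 1.32. With the letter as a term it was higher in Gpr124-/- than in wild type by 0.94 (adjusted p = 0.0418), a value set by KE4 and KE8. Without the letter J libraries that difference was 1.31 (adjusted p = 0.00337), and the difference from Gpr124 deltaC/deltaC was 1.49 (adjusted p = 0.00333, edgeR). The adjusted p of *Tcf7l1* in Gpr124-/- against wild type reached 0.935 over the alternatives.

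*Tcf7l2* (ENSMUSG00000024985; GRCm38 chr19:55741810-55933654, plus strand) was the least changed TCF/LEF factor by size in Gpr124-/-. Its wild-type TPM ran from 13.15 to 16.7, its Gpr124 deltaC/deltaC TPM from 13.7 to 16.4 and its Gpr124-/- TPM from 12.5 to 17.2, so all genotypes overlapped. The log2 fold change was −0.10 in Gpr124-/- (95% interval −0.37 to 0.17) and −0.06 in Gpr124 deltaC/deltaC (−0.33 to 0.21), and neither passed. Neither interval reaches that of *Tcf7* in Gpr124-/-.

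The summed TPM of the 4 TCF/LEF factors and each factor's share of it describe how the makeup of the family differed between libraries. The sum was 140.6 ± 31.0 in wild type, 109.2 ± 22.4 in Gpr124 deltaC/deltaC and 91.5 ± 11.7 in Gpr124-/- (SD, n = 4 each). *Tcf7* made up 45.3% ± 5.95 of it in wild type, 33.3% ± 6.04 in Gpr124 deltaC/deltaC and 26.1% ± 5.82 in Gpr124-/-. *Tcf7l1* made up 13.9% ± 4.83, 16.8% ± 6.44 and 29.7% ± 5.41. *Tcf7* was the most abundant factor in each wild-type library. It also led in Gpr124 deltaC/deltaC JE3 and Gpr124-/- ME4. *Lef1* was the most abundant in the Gpr124 deltaC/deltaC libraries JE4, LE2 and LE5 and in Gpr124-/- KE4, and *Tcf7l1* in ME1 and ME5. The share of *Lef1* was 29.4% ± 7.21 in wild type, 35.4% ± 7.92 in Gpr124 deltaC/deltaC and 27.9% ± 5.67 in Gpr124-/-. These shares are a description, with no test, and within wild type the *Tcf7l1* share was 17.4% and 18.6% in letter J against 9.10% and 10.4% in letters K and L. The wild-type sum also split by letter, at 165.7 and 168.7 TPM in letter J against 109.2 in KE8 and 119 in LE6. Within letter K the sum was 88.9 TPM in Gpr124-/- KE4 against 109.2 in wild-type KE8.

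**Figure D2:**
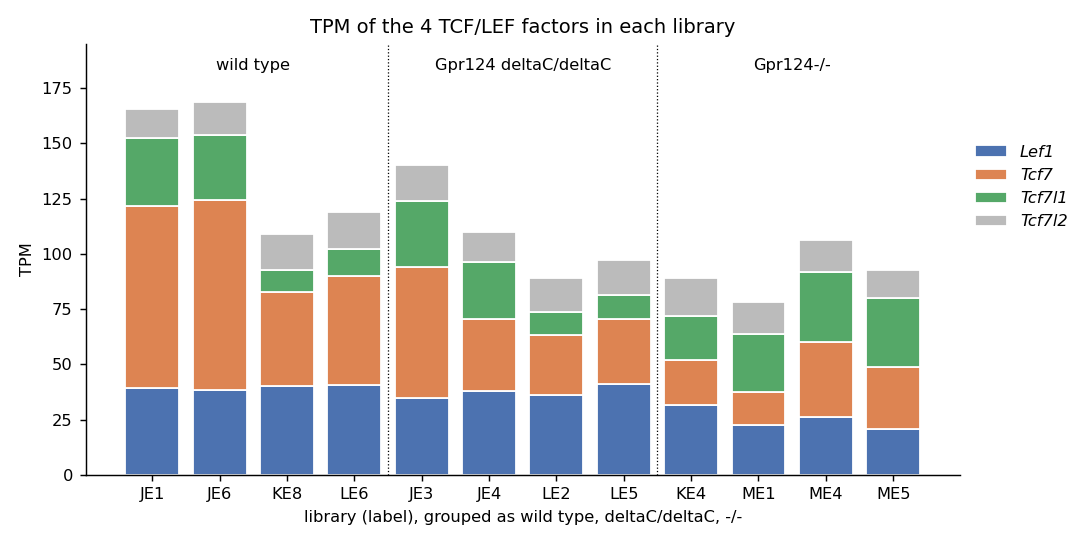
TPM of *Lef1*, *Tcf7*, *Tcf7l1* and *Tcf7l2* stacked for each of the 12 libraries (x axis: library label, grouped by genotype; y axis: TPM). The stacks run from 109.2 to 168.7 TPM in wild type and from 78.0 to 106.4 in Gpr124-/-, where the *Tcf7* block is smaller and the *Tcf7l1* block takes a larger share. The tallest wild-type stacks are the letter J libraries JE1 and JE6.

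*Ctnnb1* (ENSMUSG00000006932; GRCm38 chr9:120929216-120960507, plus strand) was by far the most abundant of the 9 genes, above 99.0% of all genes tested by wild-type TPM. Its TPM was 711 in JE1, 636 in JE6, 790.5 in KE8 and 822 in LE6. Among Gpr124 deltaC/deltaC libraries it was 566 in JE3, 905.5 in JE4, 948 in LE2 and 976 in LE5. In Gpr124-/- it was 858 in KE4, 594 in ME1, 788 in ME4 and 704 in ME5. All genotypes overlapped, and JE3 held the lowest value of all libraries.

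With 16446 to 29621 counts behind each value, *Ctnnb1* had one of the narrower intervals. The log2 fold change was −0.05 in Gpr124-/- (95% interval −0.31 to 0.21, adjusted p = 0.822) and 0.11 in Gpr124 deltaC/deltaC (−0.15 to 0.36, adjusted p = 0.833, edgeR). Between the mutants it was −0.16 (−0.41 to 0.10). RNA levels do not report the amount of β-catenin protein, which the pathway controls by degradation.

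The adaptors were the most weakly expressed members, except *Pygo2*. *Bcl9* (ENSMUSG00000038256; GRCm38 chr3:97203662-97297917, minus strand) had a wild-type TPM between 4.74 and 5.65, against 5.18 to 6.59 for Gpr124 deltaC/deltaC and 4.93 to 6.498 for Gpr124-/-. *Bcl9l* (ENSMUSG00000063382; GRCm38 chr9:44499136-44510388, plus strand) ran from 3.78 to 9.13, from 6.11 to 9.59 and from 7.35 to 8.72 in the same order. *Pygo2* (ENSMUSG00000047824; GRCm38 chr3:89430214-89435128, plus strand) ran from 40.15 to 57.3, from 42.7 to 55.4 and from 47.55 to 58.6. All genotypes overlapped for each of them, and none passed in any comparison.

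In Gpr124-/- against wild type the 95% interval of the log2 fold change was −0.21 to 0.41 for *Bcl9*, −0.36 to 0.79 for *Bcl9l* and −0.08 to 0.34 for *Pygo2*. For Gpr124 deltaC/deltaC it was −0.19 to 0.44, −0.44 to 0.72 and −0.22 to 0.21. *Bcl9l*, with 133 to 335 counts a library, had the widest of these intervals.

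*Ctnnbip1* (ENSMUSG00000028988; GRCm38 chr4:149518236-149566437, plus strand) varied more within wild type and within Gpr124 deltaC/deltaC than any other of the 9 genes. Its wild-type TPM was 121.6 in JE1, 101.5 in JE6, 21.7 in KE8 and 40.8 in LE6. Its Gpr124 deltaC/deltaC TPM was 66.2 in JE3, 72.2 in JE4, 19.1 in LE2 and 16.7 in LE5. In Gpr124-/- it was 40.6 in KE4, 65.8 in ME1, 72.6 in ME4 and 84.2 in ME5. As with *Tcf7l1*, the letter J libraries were the highest within wild type and within Gpr124 deltaC/deltaC, and KE4 was the lowest Gpr124-/- library.

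Letter J exceeded letters K and L by 2.06 on the log2 scale for *Ctnnbip1* in the 8 wild-type and Gpr124 deltaC/deltaC libraries (SE 0.16, adjusted p = 7.5e-06, edgeR), a larger absolute difference than for 98.9% of genes tested there. *Ctnnbip1*, *Tcf7l1* and *Tcf7* were the 3 of 9 genes that passed in this comparison, all higher in J, against 10.5% of genes passing higher and 3.83% passing lower in J. This comparison was added after seeing the data.

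By genotype alone *Ctnnbip1* did not pass. The log2 fold change was −0.77 in Gpr124 deltaC/deltaC (95% interval −2.06 to 0.52, adjusted p = 0.676, edgeR) and −0.18 in Gpr124-/- (−1.46 to 1.09). Within letters, Gpr124 deltaC/deltaC libraries were lower than wild type in both letters they shared, with a difference of mean log2 CPM of −0.73 in letter J and −1.29 in letter L. With the letter as a term the difference in Gpr124 deltaC/deltaC was −0.95 and passed (adjusted p = 0.000494, edgeR; up to 0.942 over the alternatives). In Gpr124-/- the sign against wild type turned with the fit, to 0.85 with the letter as a term (adjusted p = 0.0671) and to 1.10 without the letter J libraries (adjusted p = 0.0369, edgeR).

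**Figure D3:**
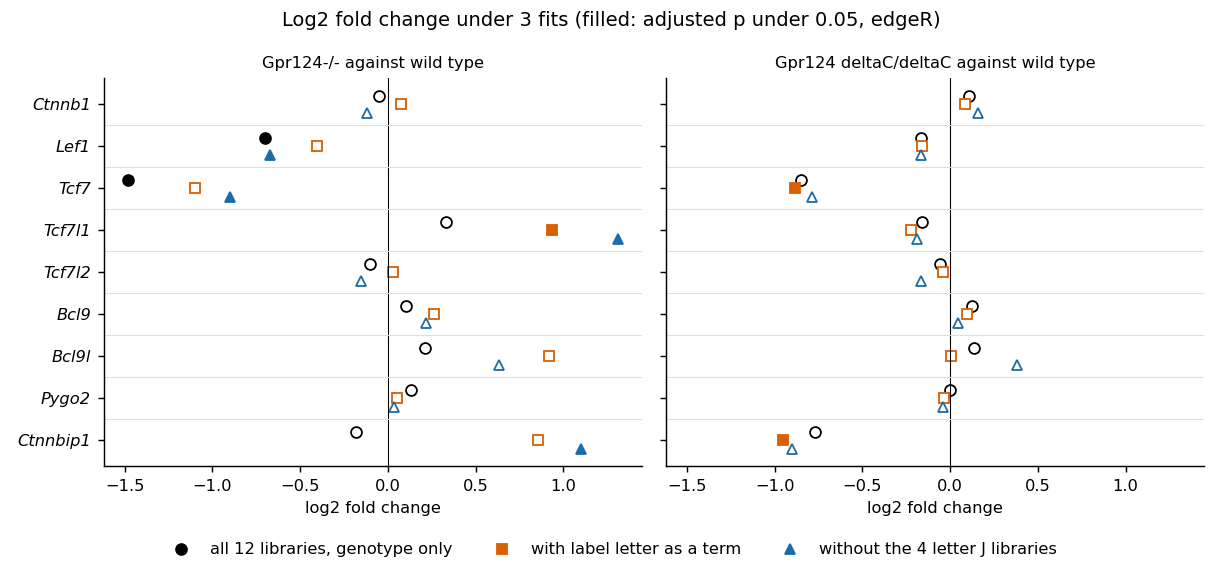
Log2 fold change (x axis) of the 9 genes in Gpr124-/- (left) and Gpr124 deltaC/deltaC (right) against wild type under 3 edgeR fits, with filled marks where the adjusted p was under 0.05. *Tcf7l1* and *Ctnnbip1* in Gpr124-/- move right when the letter enters the model or the letter J libraries are left out, while *Tcf7* stays left of 0 in every fit shown.

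None of the 9 genes passed in Gpr124 deltaC/deltaC against wild type with all 12 libraries by edgeR, DESeq2 or limma, and 1, *Tcf7*, had an unadjusted p under 0.05. Of all genes tested 2.24% passed lower and 1.85% higher in this comparison, so none among 9 is near the background. The TPM of these genotypes overlapped for all 9 genes, against 8.85% of all genes tested that did not overlap. With the letter as a term 2 of 9 passed, *Tcf7* and *Ctnnbip1*, both lower, against 3.37% of all genes tested in that direction.

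**Figure D4:**
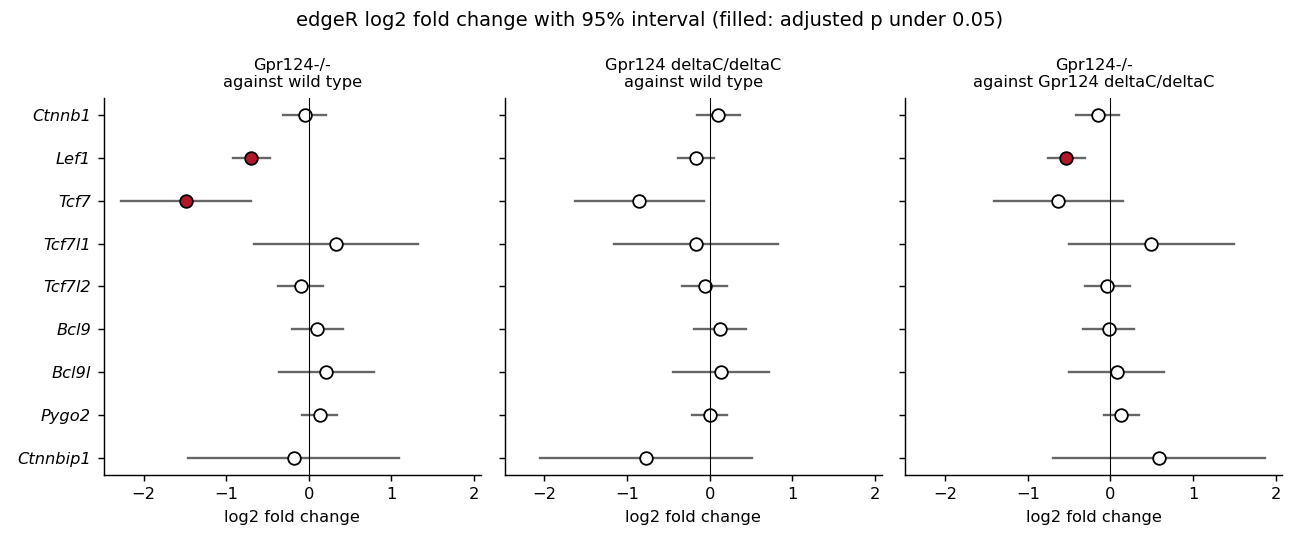
Log2 fold change (x axis) with its 95% interval for the 9 genes in the 3 genotype comparisons, from all 12 libraries with genotype as the only term. The filled points, with an adjusted p under 0.05, are *Lef1* and *Tcf7* in Gpr124-/- against wild type and *Lef1* between the mutants.

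In order of mean wild-type TPM the genes ran *Ctnnb1* at 739.7, *Ctnnbip1* at 71.4, *Tcf7* at 65.0, *Pygo2* at 47.7, *Lef1* at 39.7, *Tcf7l1* at 20.6, *Tcf7l2* at 15.3, *Bcl9l* at 6.45 and *Bcl9* at 5.28. The ranges of neighbors overlapped except between *Ctnnb1* and *Ctnnbip1*, between *Lef1* and *Tcf7l1*, and between *Tcf7l2* and *Bcl9l*. In Gpr124-/- the order was *Ctnnb1*, *Ctnnbip1*, *Pygo2*, *Tcf7l1*, *Lef1*, *Tcf7*, *Tcf7l2*, *Bcl9l* and *Bcl9*. There *Tcf7l1* at 27.1, *Lef1* at 25.3 and *Tcf7* at 24.3 TPM had overlapping ranges.

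The genes around the complex were read from 5 lists, whose counts stand against the shares of all genes tested. These were 9.32% lower and 10.5% higher in Gpr124-/- against wild type, and 2.24% lower and 1.85% higher in Gpr124 deltaC/deltaC. The shares differed in the other fits. They were, with the letter as a term, 2.53% lower and 3.63% higher in Gpr124-/- and 3.37% lower and 2.53% higher in Gpr124 deltaC/deltaC. In the fit without the letter J libraries they were 7.66% lower and 12.2% higher in Gpr124-/- and 0.556% lower and 0.48% higher in Gpr124 deltaC/deltaC. With all 12 libraries and genotype as the only term, canonical WNT target genes were the list with the most genes that passed by edgeR. Between the mutants this did not hold with the letter as a term or without the letter J libraries. This list held 12 genes, of which *Rnf43* and *Lgr5* did not pass the filter on low counts. In Gpr124-/- 7 of the 10 tested targets passed, all lower, and the median log2 fold change of the 10 was −1.85. Without the filter 7 of 12 passed, with a median of −1.33. The filter was applied anew in each fit, so the number tested varies. With the letter as a term 5 of 10 passed, without the transcription factor gene *Sp5* (−1.71, adjusted p = 0.263) and *Znrf3*, a ubiquitin ligase that removes WNT receptors (−0.58, adjusted p = 0.536, edgeR), and without the letter J libraries 7 of 11. The count in Gpr124 deltaC/deltaC was 4 of 10, again all lower, with a median of −0.91. There 6 of 10 passed by DESeq2, 5 of 10 with the letter as a term and 2 of 11 without the letter J libraries, where *Sp5* did not pass and *Axin2* was at −1.04 (adjusted p = 0.0564, edgeR). Between the mutants 2 of 10 passed, both lower in Gpr124-/-, with 4 of 10 by DESeq2 and 0 of 10 with the letter as a term.

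*Axin2*, a negative feedback regulator of the pathway and a widely used readout of it, was 6.86 ± 0.734 TPM in wild type, 3.44 ± 0.546 in Gpr124 deltaC/deltaC and 2.40 ± 0.0686 in Gpr124-/-. *Notum*, a secreted enzyme that inactivates WNT ligands, was 18.8 ± 4.01, 0.870 ± 0.559 and 1.32 ± 0.398 TPM. *Nkd1*, an inhibitor that binds Dishevelled, was 178 ± 74.6, 32.55 ± 14.8 and 13.55 ± 1.64 TPM. *Tnfrsf19*, a TNF receptor family member, was 220 ± 38.2, 141.1 ± 42.1 and 51.4 ± 16.5 TPM.

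All of these 4 targets passed in Gpr124-/- against wild type, with log2 fold changes from −3.88 for *Notum* to −1.56 for *Axin2*. *Notum* (−4.41), *Nkd1* (−2.49) and *Axin2* (−1.07, adjusted p = 0.00104, edgeR) passed in Gpr124 deltaC/deltaC and *Tnfrsf19* (−0.74, adjusted p = 0.0624, edgeR) did not. *Ccnd1*, *Myc* and *Bambi*, also on the list, had log2 fold changes of 0.20, 0.22 and 0.04 in Gpr124-/- and did not pass.

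Of the destruction complex and its regulators, which keep cytoplasmic β-catenin low, 1 of 16 genes passed lower in Gpr124-/- against wild type, as 9.32% of all genes tested did. This was *Fbxw11*, a ubiquitin ligase subunit that recognizes phosphorylated β-catenin, at 127 ± 10.96 TPM in wild type and 102.8 ± 13.4 in Gpr124-/- (log2 fold change −0.35, adjusted p = 0.0196, edgeR). None of the 16 passed in Gpr124 deltaC/deltaC by edgeR, DESeq2 or limma, and 0 had an unadjusted p under 0.05. *Fbxw11* lost its call with the letter as a term (−0.25, adjusted p = 0.615, edgeR), by limma on log2(TPM + 1) (adjusted p = 0.201), without LE6 (0.0566) and without ME1 (0.0571). Without the letter J libraries 5 of 16 passed in Gpr124-/-, all higher, against 12.2% of all genes tested, and *Fbxw11* did not (−0.35, adjusted p = 0.0686, edgeR). Between the mutants 0 of 16 passed with all libraries by edgeR, DESeq2 and limma, and 4 of 16, all higher in Gpr124-/-, without letter J, where 9.41% of all genes tested passed higher. These were *Gsk3a* and *Gsk3b*, the kinases that phosphorylate β-catenin, *Csnk1e* and the Dishevelled gene *Dvl3*, all also among the 5 against wild type.

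Other coactivators of the nuclear complex, such as the histone acetyltransferases *Crebbp* and *Ep300*, gave 0 of 13 that passed in each comparison by edgeR and by DESeq2, and 0 of 12 by limma on log2(TPM + 1). At an unadjusted p under 0.05 there were 2 in Gpr124-/- against wild type and 0 in each of the other comparisons. Their median log2 fold change in Gpr124-/- against wild type was 0.09, and without the letter J libraries 2 of 13 passed, both higher, as 2 of 13 did between the mutants. In both comparisons these were *Carm1*, a histone methyltransferase, and *Ldb1*, a LIM-domain binding protein.

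Corepressors and nuclear inhibitors gave 1 of 18 that passed lower in Gpr124-/- against wild type, as 9.32% of all genes tested did. *Sox7*, an endothelial SOX factor that can bind β-catenin, was 466 ± 16.9 TPM in wild type, 357 ± 38.1 in Gpr124 deltaC/deltaC and 291 ± 6.74 in Gpr124-/-. Its log2 fold change was −0.72 in Gpr124-/- and −0.47 in Gpr124 deltaC/deltaC. There were 3 of 18 that passed in Gpr124 deltaC/deltaC. Besides *Sox7* these were *Tle6*, a Groucho-related gene, at 1.27, and *Hic1*, a transcriptional repressor, at −1.34 on the log2 scale, named because the count is small. In Gpr124 deltaC/deltaC 1 of 18 passed without the letter J libraries, *Hic1*, and 1 with only the compared genotypes, *Sox7*. Without the letter J libraries *Sox7* did not pass there but was of similar size, at −0.43 (adjusted p = 0.151, edgeR). *Tle6* lost its call in 6 of the 12 fits without 1 library, those without KE8, LE6 or any one Gpr124 deltaC/deltaC library, and *Hic1* in 3 of 12, those without JE1, JE6 or LE5. In Gpr124-/- against wild type 2 of 18 passed by DESeq2, *Sox7* and *Tle4*, both lower. With the letter as a term 1 of 18 passed higher and 1 lower, against 3.63% and 2.53% of all genes tested. Without the letter J libraries 5 passed higher and 1 lower, against 12.2% and 7.66%. Between the mutants different genes of the list passed in different fits. With all libraries 1 of 18 passed, *Sox7*, lower in Gpr124-/- by 0.25 on the log2 scale (adjusted p = 0.039, edgeR), against 3.89% of all genes tested in that direction. This call held in 3 of 21 alternatives and in 1 of the 12 fits without 1 library, the one without JE6, and the adjusted p reached 0.825 with the letter as a term. The fit with the letter as a term passed 2 of 18, *Hic1* and *Sox17*, both higher, where 0.974% of all genes tested passed higher and 0.301% lower. When the letter J libraries were left out 6 of 18 passed, all higher, against 9.41% of all genes tested, among them *Hic1* and *Sox17* and the Groucho genes *Tle1*, *Tle3* and *Tle5*.

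β-catenin also binds cadherins at cell junctions, apart from its nuclear role. Of 9 measured junction partners, 2 rose and 1 fell in the comparison of Gpr124-/- with wild type. *Cdh5*, the endothelial VE-cadherin, was 306 ± 28.2 TPM in wild type and 529 ± 28.4 in Gpr124-/- (log2 fold change 0.74). *Jup*, which encodes the β-catenin relative plakoglobin, was 149.6 ± 9.52 and 215 ± 41.7 TPM (0.48). *Cdh2*, or N-cadherin, was 142.3 ± 21.9 and 78.2 ± 11.4 TPM (−0.90), and it also passed lower against Gpr124 deltaC/deltaC (−0.72, adjusted p = 0.00919, edgeR). With the letter as a term only *Cdh2* of these 3 kept its call against wild type, while *Cdh5* was at 0.72 (adjusted p = 0.131) and *Jup* at 0.37 (adjusted p = 0.505, edgeR). *Jup* also lost its call without JE1 (adjusted p = 0.0538), without KE8 (0.0539) and without the letter J libraries (0.072, edgeR), where 2 of 10 partners passed higher and 2 lower. Between the mutants *Cdh2* did not pass with the letter as a term (−0.66, adjusted p = 0.306, edgeR) or by limma on log2(TPM + 1) (adjusted p = 0.0574). *Cdh5* did not pass there by edgeR (0.43, adjusted p = 0.0703) but was higher in Gpr124-/- by DESeq2 (0.44, adjusted p = 0.0386) and by limma on log2(TPM + 1) (0.40, adjusted p = 0.0231), and passed in 7 of 21 alternatives. Between the mutants 1 of 10 partners passed higher without the letter J libraries, *Cdh5*, and 2 lower, *Cdh1* and *Cdh2*, against 9.41% and 4.6% of all genes tested. In Gpr124 deltaC/deltaC against wild type 0 of 9 passed by edgeR and by DESeq2, and 1 had an unadjusted p under 0.05. By limma on log2(TPM + 1) 1 of 8 passed there, *Cdh5*, higher by 0.39 (adjusted p = 0.0416).

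**Figure D5:**
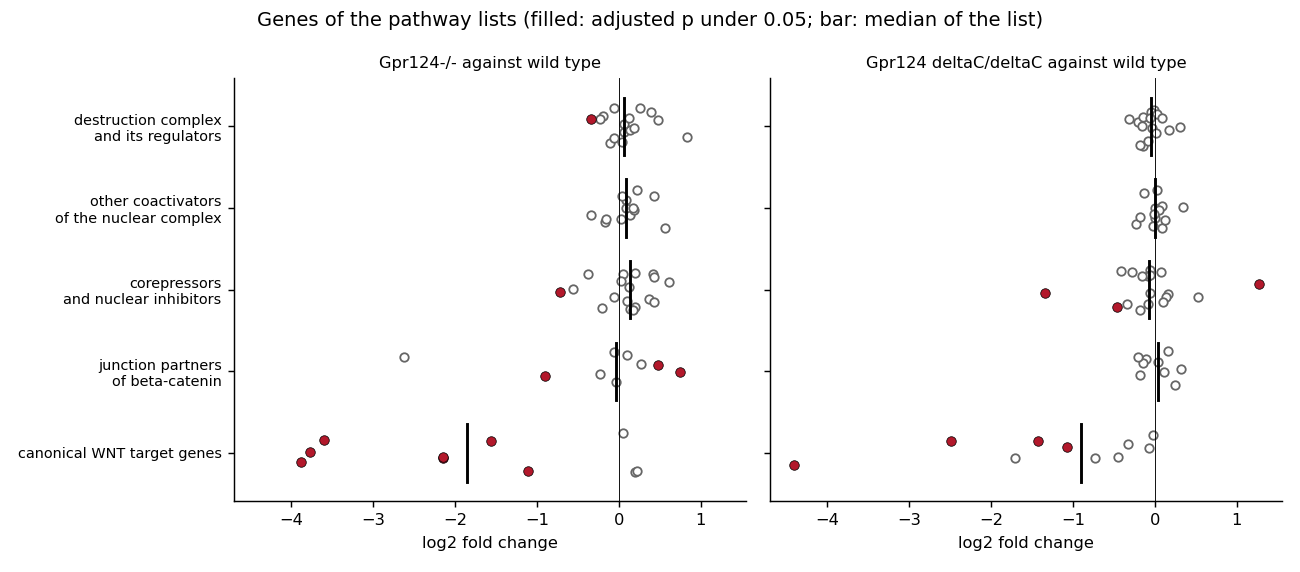
Log2 fold change (x axis) of each measured gene of the 5 pathway lists in Gpr124-/- (left) and Gpr124 deltaC/deltaC (right) against wild type, with the median of a list as a black bar and genes with an adjusted p under 0.05 filled. The WNT targets lie furthest left, with medians of −1.85 and −0.91, and the other medians lie near 0.

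Markers of other cell types were read in the same libraries, since *Lef1* and *Tcf7* are also known T-cell genes. The 5 T-cell markers summed to at most 1.20 TPM in any library, and *Cd3g* was at 0 in all 12. Microglia and macrophage markers summed to at most 7.92 TPM. The 8 endothelial markers summed to 4313 to 5483 TPM in wild type, 3647 to 5878 in Gpr124 deltaC/deltaC and 4285 to 5270 in Gpr124-/-. Of these 8, 2 passed higher in Gpr124-/- than in wild type, *Pecam1* (0.54), which encodes the CD31 used for sorting, and *Cdh5*, also among the junction partners. In the same comparison 2 passed lower, the receptor gene *Tek* (−0.73) and the transcription factor gene *Erg* (−0.41).

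Red-cell and platelet RNA moved with the genotype in which *Lef1* and *Tcf7* fell. Erythroid markers summed to 6492 to 9366 TPM in wild type, 4669 to 8159 in Gpr124 deltaC/deltaC and 14270 to 42890 in Gpr124-/-, and 4 of 6 passed higher in Gpr124-/-. Platelet markers summed to 229.7 to 452.7, 310.7 to 437.2 and 493.7 to 1400 TPM, and 4 of 4 passed higher. Neural progenitor markers, carried mainly by *Vim*, summed to 575.8 to 624.3 TPM in wild type. Their sum was 724.5 to 852.1 in Gpr124 deltaC/deltaC and 905.3 to 1080 in Gpr124-/-, so that no genotype overlapped another. The 1 of 6 that passed higher in Gpr124-/- was *Vim* (log2 fold change 0.70, adjusted p = 0.000156, edgeR). *Sox2* (0.07), *Pax6* (0.68), *Hes5* (0.17), *Nes* (0.33) and *Fabp7* (0.18) did not pass, so the sum does not stand for the other markers. Of the other lists, pericyte and smooth muscle markers summed to at most 42.1 TPM and neuron markers to at most 145.4 TPM. In Gpr124-/- against wild type 1 of 7 pericyte and smooth muscle markers passed higher (*Abcc9*) and 1 lower (*Rgs5*), 1 of 6 neuron markers higher (*Stmn2*) and 1 of 4 tested fibroblast markers lower (*Pdgfra*). Fibroblast markers summed to 57.4 TPM in wild-type KE8, the library that with KE4 sets the values of Gpr124-/- against wild type when the letter is a term, and to at most 12.5 in every other library. The part of these markers in the results was not tested.

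The genes most like each factor were taken by Pearson correlation of log2 CPM over the 12 libraries, which share genotype, depth and label letter. *Lef1* was closest to *Ptgfrn* (r = 0.977), *Cadm1* (0.976) and *Tbx3* (0.975). *Tcf7* was closest to *Abhd17c* (0.976), *Apcdd1* (0.958), itself on the WNT target list, and *Zfp362* (0.952). *Tcf7l1* was closest to *Grb2* (0.998), *Sox4* (0.997) and *Nt5dc2* (0.995). *Tcf7l2* reached 0.912 with *Gpbp1l1*, 0.863 with *Rad23b* and 0.834 with *Rad54l2*, and *Ctnnb1* reached 0.920 with *Cnot10* and 0.913 with both *Zfp251* and *Ddx42*. Among the 9 genes themselves the pair most alike was *Tcf7l1* and *Ctnnbip1* (r = 0.949), and *Lef1* with *Tcf7* gave 0.699. These correlations are descriptions, with no test.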

How the data were processed

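RNA-seq was performed on 12 libraries from sorted CD31+ forebrain endothelial cells (4 per genotype). RNA was extracted with PicoPure, and libraries were made with the SMART-Seq v4 low-input kit and sequenced as paired reads. The authors deposited, for each library, whole-number read counts per gene and TPM (length-corrected counts brought to a common library total). Per the labels, reads were processed with bcl2fastq 2.17 and mm10. The aligner, the counting tool and the use of strand are not given in the sources used here. SMART-Seq amplifies full-length cDNA without molecular identifiers, so counts are reads, not molecules.

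Recomputing TPM from the deposited counts and gene lengths gave the deposited values with a largest difference of 5e-05. Of 49315 gene identifiers, 49056 were found in GENCODE vM21, whose gene spans may differ slightly from those printed, which are the files'. The test was edgeR 4.0.16 in R 4.3.3 (TMM factors, filterByExpr by genotype with a count minimum of 10, quasi-likelihood F-test on all 12 libraries with genotype as the only term, Benjamini-Hochberg adjustment over 16637 genes). TPM was used for levels between genes. DESeq2 1.42.0 and limma 3.58.1 on log2(TPM + 1) or log2(TPM + 0.1) were alternatives, as were other factors, no filter, the label letter as a term, only the compared genotypes and leaving out each library. Tested on simulated data for Gpr124-/- against wild type, the edgeR fit recovered 192 of 200 genes changed by 2 on the log2 scale and passed 9 unchanged genes among 16336 tested. The simulated counts held no effect of the label letter, and their changes were larger than those of *Lef1* and *Tcf7*. They therefore do not describe the fit for changes of that size or under the letter. Promoter windows came from RefSeq.

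All 9 genes are described, and from each pathway list the up to 4 genes with the smallest p among those that passed in Gpr124-/- against wild type. Likeness was ranked among tested genes averaging 8 CPM or more. The 9 genes and all lists were chosen with earlier results of these data known. No sample was left unassigned.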

Additional observations from a re-analysis of the deposited data

Results flagged for a closer look

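With all 12 libraries and genotype as the only term, the effect of the genotype on *Lef1* differed between the mutants. Its log2 fold change against wild type was lower in Gpr124-/- than in Gpr124 deltaC/deltaC by 0.53 (−0.53, SE 0.10, adjusted p = 0.00715 over all genes tested, edgeR), which is what marked it. All 4 Gpr124-/- libraries lay below all 4 Gpr124 deltaC/deltaC libraries. No Gpr124-/- library shared a label letter with a Gpr124 deltaC/deltaC library, so letter and genotype cannot be told apart in this comparison. With the letter as a term the difference was −0.24 and did not pass (adjusted p = 0.89, edgeR).

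Of the 27 sets of 4 libraries (9 genes by 3 genotypes), Dixon's criterion at the 95% level marked 0 on the TPM scale and 2 on the log2 CPM scale, which was added after seeing the data. *Ctnnb1* in Gpr124 deltaC/deltaC JE3 was at 10.16 log2 CPM against 10.6 to 10.67 in the others, a gap of 0.857 of the range that is above the critical value for 4 samples, and the ratio on the TPM scale was 0.828. *Lef1* in wild-type JE6 was at 7.04 log2 CPM against 6.93 in each of the others, a narrow range in all. Chance marks about 1 in 20 such sets.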

How the results depend on the processing

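The main limit is the label letter. With it as a term, KE4 and KE8 alone set Gpr124-/- against wild type, and 1 of 9 genes passed there (*Tcf7l1*) against 2 without it. In Gpr124 deltaC/deltaC 2 passed against 0. The genes called, past an absolute log2 fold change of 1 as well, fell from 1644 to 846 in Gpr124-/- against wild type and from 766 to 209 between the mutants, where *Ctnnbip1* (1.81, adjusted p = 0.0116, edgeR) passed in place of *Lef1*. Signs turned for *Ctnnb1* (0.0728), *Tcf7l2* (0.0317) and *Ctnnbip1* (0.85) in Gpr124-/- against wild type, and for *Tcf7l2* (0.0742) and *Bcl9* (0.17) between the mutants. Without the letter J libraries 4 genes passed in Gpr124-/- against wild type (*Lef1*, *Tcf7*, *Tcf7l1* and *Ctnnbip1*, the last at 1.10) and 3 between the mutants (*Lef1*, *Tcf7l1* and *Ctnnbip1*). Between the mutants *Tcf7l2* (0.0128) and *Bcl9* (0.17) turned sign. The genes called were then 148 in Gpr124 deltaC/deltaC (320 with all libraries) and 1465 between the mutants. The cause was not tested.

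By limma the sign turned for *Ctnnbip1* in Gpr124-/- (0.14 under each pseudocount and without the filter), and in Gpr124 deltaC/deltaC for *Tcf7l2* (0.011, and 0.0118 with the pseudocount of 0.1) and *Pygo2* (0.0797 and 0.0813). *Pygo2* also turned, to 0.0101, with only the compared genotypes. Genes called by limma on log2(TPM + 1) were 482 between the mutants, and without the filter 386 there and 193 in Gpr124 deltaC/deltaC. The median log2 fold change of all genes moved by less than 0.1 under each scaling.

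Leaving out 1 library at a time kept *Lef1* and *Tcf7* passing in Gpr124-/- against wild type (log2 fold change −0.80 to −0.62 and −1.66 to −1.27) and *Lef1* between the mutants (−0.63 to −0.46). From 0 to 1 of 9 genes then passed in Gpr124 deltaC/deltaC, the 1 being *Tcf7* without JE3, and 506 (without ME5) to 1008 genes were called between the mutants. Values whose sign turned ranged, in Gpr124-/- against wild type, from −0.49 to 0.17 for *Ctnnbip1* and −0.11 to 0.018 for *Ctnnb1*. In Gpr124 deltaC/deltaC the ranges were −0.57 to 0.11 for *Tcf7l1*, −0.17 to 0.00904 for *Tcf7l2*, −0.10 to 0.41 for *Bcl9l* and −0.0391 to 0.0699 for *Pygo2*. Between the mutants they were −0.10 to 0.0676 for *Tcf7l2*, −0.11 to 0.0778 for *Bcl9* and −0.0223 to 0.31 for *Bcl9l*. Of 567 values of the 9 genes over 21 alternatives, 516 kept their sign and their side of the threshold, and none of the 40 that turned sign had passed with all 12 libraries. Most of the 516 were values that passed in neither fit. The 3 values that lost their call all did so with the letter as a term. They were every call of the main fit, *Lef1* and *Tcf7* in Gpr124-/- against wild type and *Lef1* between the mutants. No paired analysis was possible because the labels give no replicate numbers that pair libraries across genotypes. The letter, shared by some libraries, was fitted as a term instead.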
